A study of Drosophila melanogaster with 60 samples.

Results

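The doublesex locus was followed peak by peak in the chromatin of male fly brains. The locus was taken as every deposited peak whose interval overlapped 3R:7924654-7971612, which gave 20 peaks of 36007. Of these, 6 came from the 14894 peaks of the histone mark H3K4me3 and 14 from the 21113 peaks of RNA polymerase II (RNAPolII). The rule used positions only and no measured value. The sources used here do not name the build behind these positions.

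CUT&RUN releases and sequences the DNA beside an antibody-bound protein, and it was done on dissected brains of Drosophila melanogaster males with 1 of the 2 antibodies per library. H3K4me3 marks mostly the starts of transcribed genes, and RNAPolII is the enzyme that transcribes them. Each of 5 genotypes was kept alone (SH) or in a group (GH), with 3 libraries per antibody in each of the 10 groups, so that a genotype had 6 libraries per antibody. The dsx flies were w-/Y; +/+; dsxf00683-d07058/f01649-d09625, and their third-chromosome alleles are the subject here. The Or47b flies (w+/Y; Or47b2/3;+/+) and the Or67d flies (w+/Y; +/+; Or67dGAL4/GAL4) carried mutations of pheromone receptor genes, and the fru flies (w+/Y; +/+; fruLexA/4-40) carried mutations of fruitless, the male courtship regulator. Canton-S (CS) was the wild type. The dsx flies also differed from CS at w, and strain background may differ too, so an effect of the alleles and one of the background cannot be told apart. Each library pooled brains of several males, 15 with H3K4me3 and 30 with RNAPolII.

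doublesex stands at the end of the fly sex-determination cascade. Sex-lethal controls the splicing of transformer, and transformer with transformer-2 controls the splicing of doublesex, so that males and females make different DSX proteins from 1 gene. DSX is a transcription factor of the DM domain family, and in the brain it is made in a limited set of neurons. Allele names of the form f-d are used for deletions made between transposon insertions. The labels do not say what these alleles lack, and no reads of total DNA were used, so missing DNA and lost signal cannot be told apart at any peak below. In whole brains, fewer cells with signal and less signal per cell cannot be told apart either.

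Reads in peaks ranged from 2309386 to 9269525 per H3K4me3 library and from 3007711 to 6459322 per RNAPolII library. H3K4me3 at 5 neuronal genes ran between 24.9 units per kb at elav and 894 at nSyb, at 3 glial genes between 28.1 and 38.6, at 2 muscle genes between 30.1 and 31.3, and at 3 fat body genes between 16.6 and 334, the last at apolpp. At 4 photoreceptor genes, 2 haemocyte genes and the testis gene aly it ran between 16.8 and 26.8. The glial gene repo had no H3K4me3 peak and 68.5 units per kb of RNAPolII. Of 20 marker genes with an H3K4me3 peak, 1 had all dsx libraries below all CS libraries, aly, with a mean signal of 15.5 in dsx against 34.8 in CS. Of 22 with an RNAPolII peak, 2 did, both neuronal, and in neither antibody did any lie wholly above CS. Over all peaks tested, all dsx libraries lay below all CS libraries at 0.896% with H3K4me3 and 1.48% with RNAPolII. Among the 5 neuronal genes, the dsx mean was below the CS mean at 5 with RNAPolII and at 1 with H3K4me3. The haemocyte gene NimC1 had a mean H3K4me3 signal of 11.8 in dsx against 27.3 in CS, and an RNAPolII signal of 92.9 in dsx against 93.5 in CS. Hml, also of haemocytes, had 34.4 in dsx against 45.3 in CS with H3K4me3 and 19.6 in dsx against 45.0 in CS with RNAPolII. The part of these differences in the values at doublesex was not tested. The median correlation of a library with the others of its antibody ran from 0.957 to 0.972 with RNAPolII. Or47b GH 3, Or47b SH 3 and Or67d GH 3 were doubted after seeing the data. Without them, 13 RNAPolII peaks of the locus were called lower in dsx than in CS. None of them is a dsx or CS library. Leaving them out changed only the shared estimate of spread, so this count could hardly move.

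In dsx brains nearly all signal was gone from 1 unbroken stretch of the locus, and it was kept on both sides. The low stretch ran over 12 neighbouring RNAPolII peaks, from 7927368 to 7964916, a distance of 37549 bp, and the 4 H3K4me3 peaks between 7930275 and 7963974 lay inside it. The first RNAPolII peak of the locus ended 76 bp before the stretch, and the last began 1129 bp after it. Both kept most of their signal. Low here means a dsx mean under 5% of the CS mean. The RNAPolII peaks covered 78.5% of the locus and the H3K4me3 peaks 12.8%. Each H3K4me3 peak had at least 98.7% of its length inside an RNAPolII peak. The reverse did not hold, since most of the low RNAPolII peaks held no H3K4me3 peak and were seen with RNAPolII alone.

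**Figure D1:**
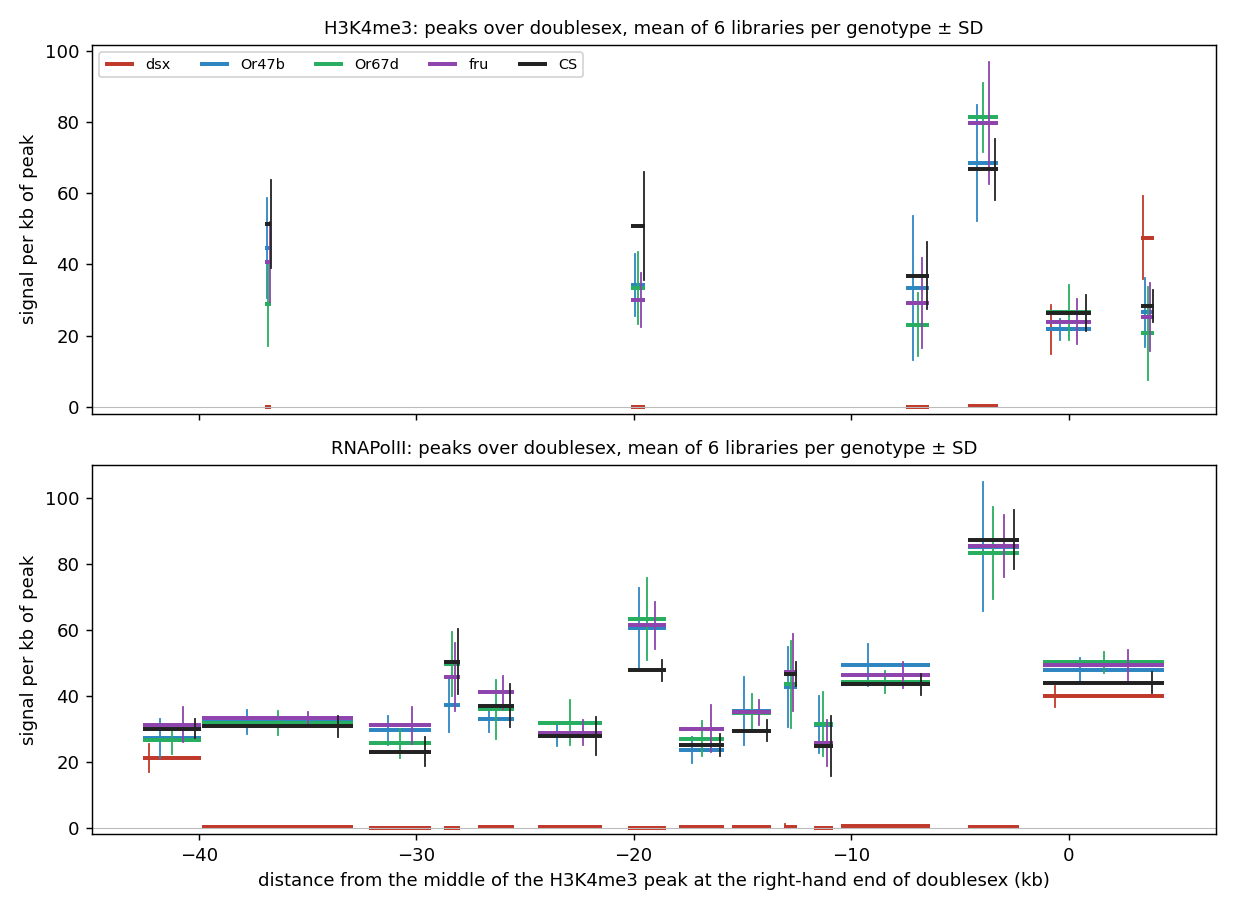
Deposited signal per kb of peak (y axis) at each H3K4me3 peak (top) and RNAPolII peak (bottom) of the doublesex locus, against distance in kb along the chromosome. Horizontal bars span a peak at the mean of 6 libraries and thin vertical lines are ± SD. The dsx bars lie near 0 at 4 H3K4me3 and 12 RNAPolII peaks and well above 0 at the outer peaks. At the last H3K4me3 peak the dsx bar is at 47.5, against 20.6 to 28.3 in the other genotypes.

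The H3K4me3 peaks of the low stretch were small to moderate in the other genotypes. The peak from 7962564 to 7963974 was the strongest of them. It held 0, 0 and 0.946 (lowest, median and highest of 6 libraries) in dsx brains, against 82.9, 89.6 and 111 in CS brains. The groups were far apart, and the log2 change was -6.26 with a 95% interval of -6.63 to -5.88 (limma, adjusted p = 2.18e-44).

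At 7959738 to 7960791 the dsx libraries held 0, 0 and 0.457, against 31.5, 36.3 and 58.4 in CS libraries. The log2 change was -5.19 with an interval of -5.81 to -4.58. The peak from 7947071 to 7947730 held 0 in all 6 dsx libraries, against 24.3, 30.5 and 51.2 in CS. Set against a floor of 3 reads per library, dsx brains were at least 12.3-fold lower there. The smallest peak, from 7930275 to 7930550, also held 0 in every dsx library, against 9.60, 14.1 and 18.1 in CS, and was at least 5.21-fold lower. It was left out of the test because its mean over all libraries was under 10.

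Of the 5 H3K4me3 peaks tested, 3 were lower in dsx than in CS, where 1.98% of all H3K4me3 peaks were called lower. At these 3 all dsx libraries lay below all CS libraries, which held for 0.896% of all peaks. All 3 also had a dsx mean under 5% of the CS mean, so this separation was nearly fixed. These 3 were also lower than in Or47b, Or67d and fru brains, where the share of all peaks called lower was 0.613%, 1.17% and 0.593%. These comparisons share the dsx libraries and are not independent of each other.

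RNAPolII was low across the whole stretch, in strong and weak peaks alike. The longest peak, from 7927368 to 7934294, held 0, 0 and 1.19 in dsx brains, against 178, 211 and 241 in CS brains. The log2 change was -7.37 with an interval of -7.65 to -7.09 (limma, adjusted p = 4.61e-27). The peak with the most signal per length, from 7962582 to 7964916, held 0, 0.492 and 1.09 in dsx, against 175, 205 and 232 in CS. It changed by -7.16 on the log2 scale, with an interval of -7.53 to -6.78. The peak from 7956736 to 7960826 kept the most reads of the 12, with values of 0, 1.02 and 4.75 in dsx against 159, 177 and 195 in CS.

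Another 4 RNAPolII peaks held 0 in all 6 dsx libraries. The one from 7946934 to 7948700 was at least 25.6-fold lower than in CS, where it held 75.9, 85.6 and 89.8. Those starting at 7935039, 7938476 and 7955491 were at least 20.0-fold, 11.4-fold and 6.52-fold lower, and these bounds are set by the level in CS. The other low RNAPolII peaks held at most 2 reads over the 6 dsx libraries together. From 7942799 to 7945770 the dsx libraries held 0, 0 and 1.19, against 59.1, 83.3 and 107 in CS. From 7940044 to 7941705 they held 0, 0 and 1.19, against 43.7, 64.7 and 71.8 in CS. Both peaks thus had reads in a minority of the dsx libraries, 2 of 6 in each case.

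A single read was left in each of 3 further peaks. From 7949280 to 7951373 the highest dsx library held 1.19, against 40.5, 54.6 and 59.5 in CS. From 7951750 to 7953522 it held 1.09, against 45.2, 52.2 and 60.4 in CS. The shortest RNAPolII peak of the locus, from 7954125 to 7954739, held 1.07 in its highest dsx library, against 26.03, 28.2 and 31.6 in CS. In each of these the other dsx libraries were at 0, and no CS library came near it.

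Over the 12 peaks the log2 change ran between -7.37 and -4.43, and all dsx libraries lay below all CS libraries at each of them, as at 1.48% of all RNAPolII peaks. The 12 were picked by a dsx mean under 5% of CS, so this separation was nearly fixed by the choice. With the edge peak described below, 13 of 14 RNAPolII peaks were called lower in dsx than in CS, against 0.883% of all RNAPolII peaks. Against Or47b the count was 12 (0.655% of all peaks), against Or67d 13 (0.716%) and against fru 14 (0.446%).

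Very few reads remained in the low stretch. The deposited values could be turned back into whole reads, which are counted here in the libraries that also passed a second check, described below. Over the 4 low H3K4me3 peaks, 3 reads were left in the 6 dsx libraries together, against 883 in the 5 CS libraries that passed it. Over the 12 low RNAPolII peaks there were 20 reads in the 6 dsx libraries, between 2 and 6 in each, against 5726 in 5 CS libraries. As summed signal per library, dsx brains held 0.206% of the CS level with H3K4me3 and 0.344% with RNAPolII. Of the 20 RNAPolII reads, 8 lay in the peak from 7956736 to 7960826, where CS held 117 times the dsx signal with a counting interval of 61.8 to 282. These intervals and floors cover counting error alone and leave out variation between libraries. No molecular identifiers were used here, so copies of the same DNA fragment may be counted as separate reads.

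The loss was present in both housings. Alone, dsx brains had 0.138 ± 0.139 units of H3K4me3 per kb over the low peaks against 52.4 ± 5.96 in CS (SD, n = 3 each). In a group, they had 0.0814 ± 0.141 against 53.7 ± 4.54. RNAPolII over the low peaks was 0.0840 ± 0.0164 per kb in dsx against 37.4 ± 0.954 in CS when alone, and 0.176 ± 0.0685 against 38.0 ± 1.55 in a group. Within each housing, 3 H3K4me3 and 12 RNAPolII peaks were called lower in dsx by limma and by edgeR. DESeq2 called the same number of RNAPolII peaks, but 0 H3K4me3 peaks alone and 2 in a group, with an unadjusted p under 0.05 at 3 in each housing. It gave no adjusted p to many H3K4me3 peaks. The shares of all peaks called lower were 0.531% and 0.365% alone and 0.351% and 0.313% in a group.

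The 8 groups of the other genotypes all held signal over the low stretch. H3K4me3 ran between 48.1 ± 2.13 units per kb in Or47b SH and 53.7 ± 4.54 in CS GH (SD, n = 3 each). Neighbours in that order differed by less than the larger of their SDs. RNAPolII ran between 42.3 ± 1.02 in Or67d GH and 37.4 ± 0.954 in CS SH, with fru SH next to the highest at 41.2 ± 0.706. Except between Or67d GH and fru SH, neighbours in this order too differed by less than the larger SD. Toward the ends of the order, Or67d GH libraries held 41.1 to 42.9, CS SH libraries 36.6 to 38.5 and Or67d SH libraries 35.2 to 39.3. These groups were picked by their rank, and differences in the summed signal were not tested. No single RNAPolII peak of the locus was called between the housings in Or67d. The dsx groups were last with both antibodies, and their place below CS follows from how the low peaks were picked.

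Peak by peak, the receptor and fru mutants also held signal throughout the stretch. At the H3K4me3 peak from 7962564, the level was 96.5 ± 22.9 in Or47b, 115 ± 13.7 in Or67d and 112 ± 24.1 in fru, against 94.1 ± 12.1 in CS (SD, n = 6 each). At the RNAPolII peak from 7927368 it was 222 ± 25.4, 221 ± 25.2 and 230 ± 12.9 in these mutants, against 213 ± 22.2 in CS. At the RNAPolII peak from 7962582 it was 199 ± 45.7, 195 ± 32.3 and 199 ± 22.0, against 204 ± 21.0 in CS. At each of the 3 peaks the mutants overlapped CS. The weakest H3K4me3 peak, from 7930275, was at 12.3 ± 3.87, 7.96 ± 3.25 and 11.2 ± 3.12 in them, against 14.2 ± 3.40 in CS, and it was not tested.

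The peaks kept in dsx brains sat at the outer ends of the locus. At the H3K4me3 peak from 7966177 to 7968228, dsx libraries held 30.1, 42.3 and 61.5, against 42.3, 52.1 and 72.0 in CS libraries. The groups overlapped, and the log2 change of -0.30 with an interval of -0.68 to 0.07 did not pass (limma, adjusted p = 0.297). The RNAPolII peak from 7966046 to 7971612 spans this H3K4me3 peak and the next. It held 195, 224 and 239 in dsx against 232, 237 and 279 in CS, a log2 change of -0.14 with an interval of -0.29 to 0.01 that did not pass. The same peak was lower in dsx than in Or67d (-0.33) and fru (-0.31), and both of those differences passed. The call against Or67d was lost with edgeR (adjusted p = 0.0585). The call against fru was lost when any 1 of 9 of the 12 libraries was left out, with adjusted p between 0.0648 and 0.159, and was kept without dsx GH 3, dsx SH 3 or fru SH 1.

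The first RNAPolII peak of the locus, from 7924654 to 7927291, was reduced but not emptied. It held 45.1, 53.5 and 75.1 in dsx brains, against 68.7, 80.3 and 89.2 in CS brains. The log2 change was -0.52 with an interval of -0.78 to -0.25 (limma, adjusted p = 0.0277), and the libraries overlapped. The call did not hold with edgeR on whole reads (adjusted p = 0.0535), nor when any 1 of 6 libraries was left out: CS GH 2, CS SH 1, dsx GH 2, dsx GH 3, dsx SH 1 or dsx SH 2, with adjusted p between 0.0578 and 0.0950. Against fru the log2 change was -0.56 and passed, but not without dsx GH 2, dsx GH 3, dsx SH 1, dsx SH 2, fru GH 3, fru SH 1 or fru SH 2 (adjusted p between 0.0621 and 0.110). Against Or47b it was -0.35 and against Or67d -0.33, and neither passed.

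**Figure D2:**
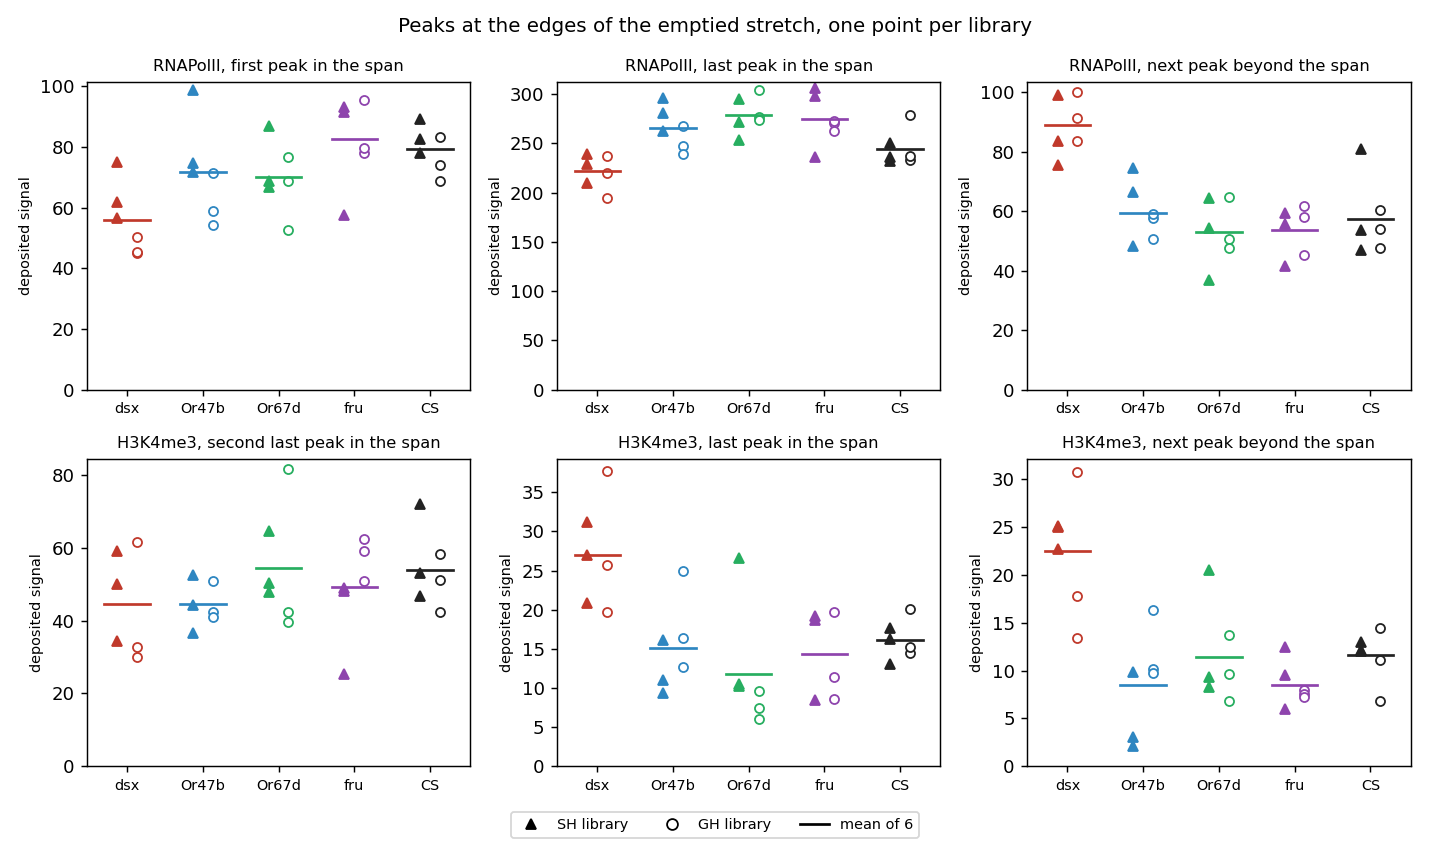
Deposited signal (y axis, from 0) in each library at 3 RNAPolII peaks (top) and 3 H3K4me3 peaks (bottom) at the ends of the locus and just beyond it. Triangles are SH libraries, open circles GH libraries and lines the mean of 6. At the RNAPolII peak beyond the locus, dsx libraries run between 75.5 and 100.2 and CS libraries between 47.0 and 81.0.

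At the right-hand end of the locus and just beyond it lay 3 peaks over no gene, of which the RNAPolII peak rose in dsx against CS and the H3K4me3 peaks did not pass. The H3K4me3 peak from 7970553 to 7971121 held 19.7, 26.4 and 37.7 in dsx, against 13.02, 15.7 and 20.1 in CS. Against CS the log2 change of 0.69 had an interval of 0.11 to 1.27 and did not pass (adjusted p = 0.123). It passed after quantile normalization (0.90, adjusted p = 0.0477). Against Or67d the change of 1.26 passed, where 0.972% of all peaks were called higher, and against Or47b and fru it was 0.83 and 0.92 without passing.

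The next RNAPolII peak, from 7972195 to 7973280, lies just outside the locus. It held 75.5, 87.5 and 100.2 in dsx against 47.0, 53.9 and 81.0 in CS. It was higher in dsx than in CS by 0.64 on the log2 scale, with an interval of 0.33 to 0.95 (limma, adjusted p = 0.0170), although 1 CS library reached into the dsx range. It was also higher than in Or47b, Or67d and fru, by 0.58, 0.75 and 0.73, where 0.569%, 0.821% and 0.351% of all RNAPolII peaks were called higher. The call against CS was lost with edgeR and without CS GH 2, CS SH 2 or dsx SH 3. That against Or47b (adjusted p = 0.0494) was lost without any 1 library other than Or47b SH 3. Those against Or67d and fru were kept in all 23 alternatives. The H3K4me3 peak beside it, from 7972429 to 7972680, held 13.4, 23.9 and 30.8 in dsx against 6.77, 12.1 and 14.4 in CS. Its change of 0.89 against CS did not pass (adjusted p = 0.0873), nor did 0.96 against Or67d, while 1.49 against Or47b and 1.30 against fru did, the last not without dsx GH 3. The change against CS passed in 4 of 21 alternatives: a pseudocount of 10, quantile normalization, the replicate block and the spread covariate. That against Or67d passed when the compared libraries alone were fitted. Against Or47b and fru, 0.786% and 1.12% of all H3K4me3 peaks were called higher.

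Within 50 kb of the locus, 20 H3K4me3 peaks were tested against CS and 1 was called in dsx, against 5.4% of all H3K4me3 peaks. It was the peak from 7885756 to 7887798 over CG17816 and ArgRS-m, the mitochondrial arginyl-tRNA synthetase gene. It held 776, 837 and 969 in dsx against 1050, 1107 and 1245 in CS, a log2 change of -0.39 (limma, adjusted p = 0.00216). The groups did not overlap. Of 19 RNAPolII peaks tested, the one from 7972195 was called, against 1.84% of all. The RNAPolII peak nearest on the left lies over lds and CG10445 and changed by 0.19 with an interval of 0.03 to 0.35, without passing. The nearest on the right over a gene, at CD98hc, changed by -0.04 with an interval of -0.18 to 0.09.

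**Figure D3:**
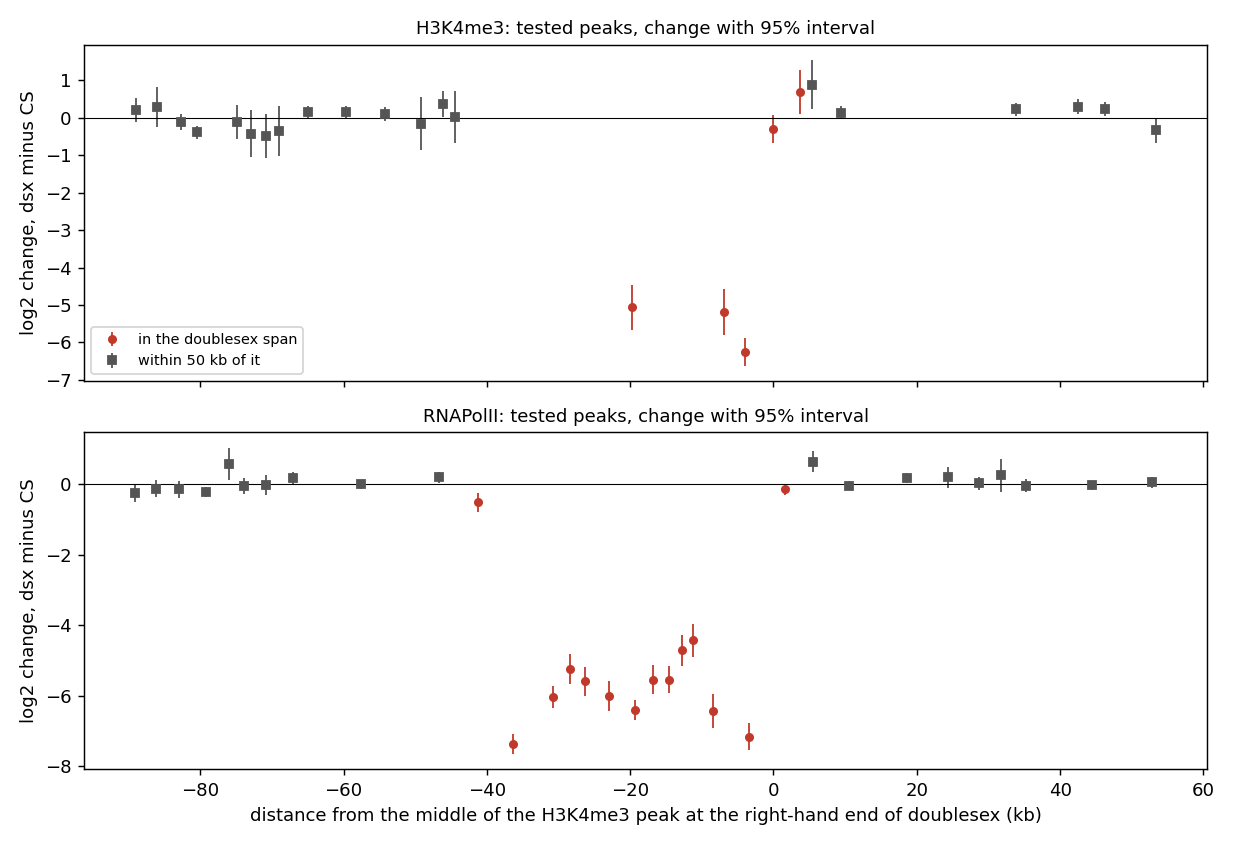
Log2 change in signal, dsx minus CS, with 95% intervals (y axis) for tested H3K4me3 peaks (top) and RNAPolII peaks (bottom) by distance in kb along the chromosome. Red points are peaks of the locus and grey squares peaks within 50 kb of it. Changes below -4 are found only in the low stretch among the peaks drawn.

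In Or47b, Or67d and fru brains, none of the doublesex peaks was called against CS by limma or edgeR, nor by DESeq2 where it gave an adjusted p. The unadjusted p of edgeR was under 0.05 in 4 H3K4me3 and 5 RNAPolII values and that of DESeq2 in 3 and 5. With limma it was under 0.05 in 2 of 15 H3K4me3 values and 8 of 42 RNAPolII values. Of all H3K4me3 peaks, 0.806% were called in Or47b, 30.0% in Or67d and 2.2% in fru, and of all RNAPolII peaks 0.56%, 1.08% and 1.04%. The RNAPolII peak from 7946934 to 7948700 had an unadjusted p under 0.05 in all 3, with log2 changes of 0.32, 0.39 and 0.36 in Or47b, Or67d and fru. These share the CS libraries, which held 75.9 to 89.8. The fru libraries held 97.7 to 131, all above CS, the only 1 of the 14 RNAPolII peaks without overlap between fru and CS. The share of all peaks with such a separation in fru was not counted, so this peak cannot be told from the background. At the H3K4me3 peak from 7959738, Or67d libraries held 14.0, 21.4 and 35.7 against 31.5, 36.3 and 58.4 in CS, a log2 change of -0.70 with an interval of -1.31 to -0.09 (limma, adjusted p = 0.0725).

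Housing alone was compared with housing in a group within each genotype, since social experience is the study's treatment. The low peaks of dsx brains hold no or single reads, so their housing values can show no change and are not counted. None of the other 22 H3K4me3 and 58 RNAPolII values was called by limma or edgeR, nor by DESeq2, which gave an adjusted p to 17 and 58 of them. Of all H3K4me3 peaks 0.0345% were called in Or47b, and 0% in each of the other housing comparisons of either antibody. With limma, 3 and 3 values had an unadjusted p under 0.05, and with edgeR and with DESeq2 2 and 4. In CS brains the log2 change, SH minus GH, lay between -0.31 and 0.20 at the 5 H3K4me3 peaks and between -0.56 and 0.19 at the 14 RNAPolII peaks. The 95% intervals of these CS values reached -1.23 and 0.77, so a change inside that range may not be detectable with 3 libraries a side. In Or67d brains the RNAPolII change had a median of -0.24 and was above 0 at 2 of the 14 peaks, without a call.

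The housing value farthest from 0 was at the H3K4me3 peak from 7959738 in Or47b brains. The log2 change was -1.22 with an interval of -2.09 to -0.36 (limma, adjusted p = 0.108). It passed with the replicate number as a block and when the Or47b libraries alone were fitted. At the first RNAPolII peak of the locus, from 7924654, the log2 change was 0.44 in dsx brains and 0.40 in Or47b brains, and neither passed after adjustment. Inside the low stretch of dsx brains the housings differed by single reads: 7 RNAPolII reads in 3 SH libraries against 13 in 3 GH libraries. The housing change in a mutant was set against that in CS in 17 H3K4me3 and 44 RNAPolII tests, the low peaks in dsx again not counted. None was called by limma or edgeR, nor by DESeq2 where it gave an adjusted p, and none had an unadjusted p under 0.05 with these tools.

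**Figure D4:**
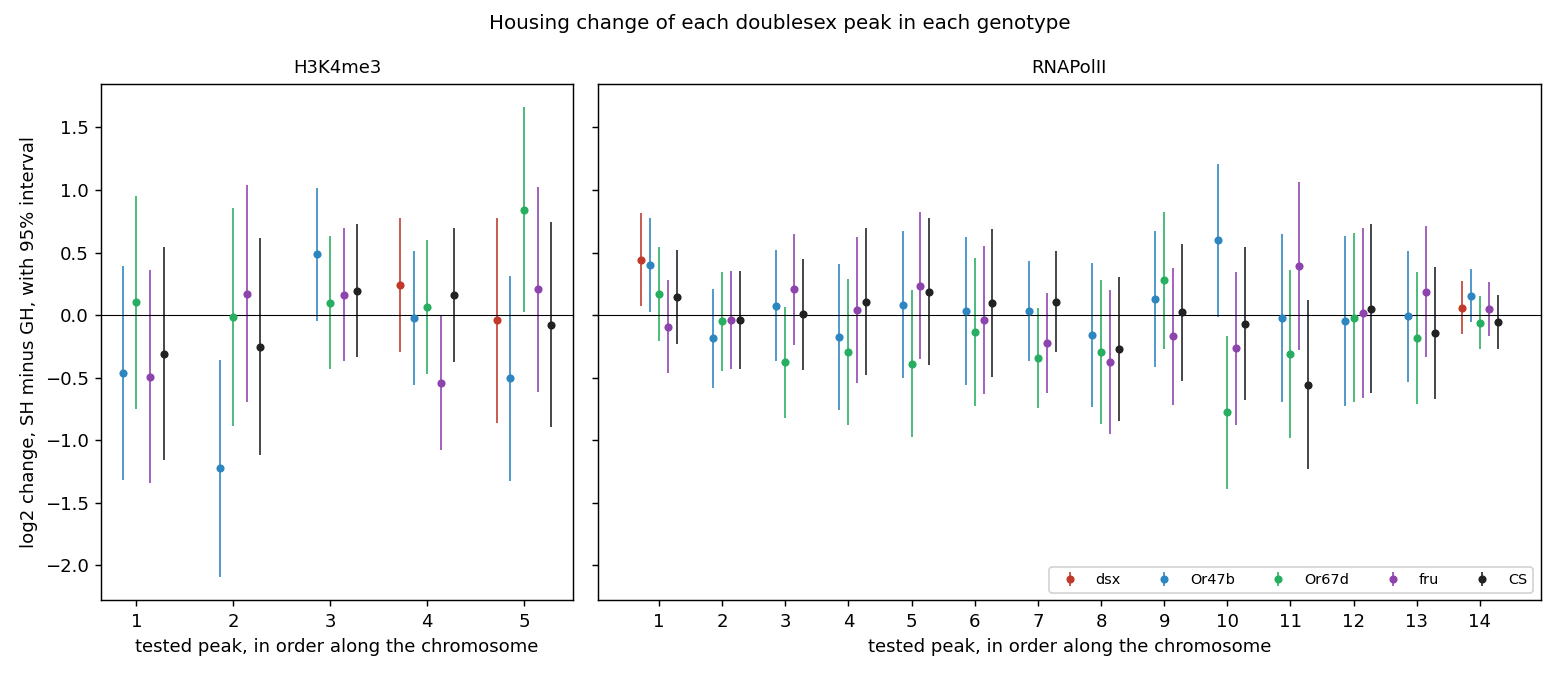
Log2 change in signal, SH minus GH, with 95% intervals (y axis) at each tested H3K4me3 peak (left) and RNAPolII peak (right) of the locus, numbered along the chromosome, in dsx, Or47b, Or67d, fru and CS. Peaks of the low stretch are not drawn for dsx, where they hold single reads. The H3K4me3 value of -1.22 in Or47b lies farthest from 0.

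Per kb, CS signal had a median of 43.8 over the tested H3K4me3 peaks of the locus, against 40.7 over all H3K4me3 peaks tested, and of 33.9 over its RNAPolII peaks, against 40.0 over all. RNAPolII per kb ranged from 23.1 to 87.3 within the locus, with the peak from 7962582 highest. Over the 24 libraries that were not dsx, the coefficient of variation had a median of 35.0% at the H3K4me3 peaks and 18.4% at the RNAPolII peaks, against 27.5% and 17.1% over all peaks.

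Loss of this depth was rare in the rest of the genome. With H3K4me3, 5 of 14595 peaks with a CS mean of at least 10 fell under 5% of it in dsx, and 4 of these were doublesex peaks. The other was at sand, a potassium channel gene, with 21.6 ± 7.73 in dsx against 588 ± 72.0 in CS (SD, n = 6 each). With RNAPolII it was 16 of 20929 peaks, 12 of them at doublesex. The other 4 included a peak over Acsx1L and GluClalpha, a glutamate-gated chloride channel gene, with 0.373 ± 0.579 against 54.4 ± 20.3, and a peak over kirre, a cell adhesion gene, with 0 in all 6 dsx libraries against 23.7 ± 3.52.

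By correlation over the 30 libraries, the RNAPolII peaks most like the low stretch were the peaks over Acsx1L and GluClalpha (r = 0.984) and over kirre (0.975), followed by 3 peaks over bru3, an RNA-binding protein gene (0.963, 0.962 and 0.960). The first bru3 peak held 187 ± 23.3 in dsx against 375 ± 24.1 in CS (SD, n = 6 each). With H3K4me3 the nearest were peaks over heph (0.903), CG9240 (0.880), CG3191 (0.874), CG3630 (0.860) and bru3 (0.839). The split between dsx and the other libraries sets these values, so they describe that split and carry no test.

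Other genes of the pathway were compared between dsx and CS brains at 1 peak per gene. Many of these peaks also lie over other genes, as the RNAPolII peak of msl-2 does over Cog3 and Sec5. A value there is not of the named gene alone. Of 17 upstream regulators, among them Sxl, tra and tra2, 13 were tested with H3K4me3 and 12 with RNAPolII, and none was called. With RNAPolII, tra and tra2 had no peak and were not tested. The value nearest to passing was RNAPolII at gro, a log2 change of -0.44 (limma, adjusted p = 0.0575). Of all peaks 5.4% and 1.84% were called, higher and lower together. The median log2 changes of the upstream regulators were 0.13 and -0.07, against -0.02 and 0.01 over all peaks tested. At Sxl, H3K4me3 was 545 ± 72.0 in dsx against 484 ± 62.2 in CS (SD, n = 6 each). The cofactors and fellow regulators fru, her, ix and msl-2 had no call, with medians of 0.11 and -0.05. Of the related DM domain genes, dmrt93B and dmrt99B were tested with H3K4me3 and all 3 with RNAPolII, without a call and with medians of -0.19 and 0.02.

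Among 8 known targets of DSX, 5 were tested with H3K4me3 and 8 with RNAPolII, with medians of -0.16 and -0.0024, and 1 was called. RNAPolII at Fad2, a desaturase gene of pheromone synthesis, was 398 ± 30.8 in dsx against 315 ± 37.0 in CS (SD, n = 6 each), a log2 change of 0.34 (limma, adjusted p = 0.0346). That peak also lies over CG32079. The yolk protein gene Yp1 had RNAPolII of 89.5 ± 11.6 in dsx against 90.7 ± 9.65 in CS. The share of all RNAPolII peaks called higher in dsx was 0.954%.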

How the data were processed

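Brains of male flies were profiled by CUT&RUN in 60 libraries, all used. The submitters' processing notes name ChIPseeker, DESeq2, MACS2, Bowtie2 and Trim Galore, with no version. The sources used here do not give the build, the counter or any filter. The deposited tables hold signal on 1 set of peaks per antibody, which the authors divided by a size factor per library, as the whole-number steps of the values show. With the step found for each library, 100% of values came out whole to within 0.01 reads in all 60. A second check, which starts from a library's lowest value, was passed by 26 H3K4me3 and 28 RNAPolII libraries, and the others were left out of the edgeR and DESeq2 tests only.

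Peaks with a mean of at least 10 over 30 libraries were tested, 14513 with H3K4me3 and 21076 with RNAPolII, as log2 of the value plus 1, with limma 3.58.1 in R 4.3.3 (10 group means, mean trend). Fold changes on this scale understate changes of low peaks. Adjusted p is by Benjamini-Hochberg over all peaks tested, threshold 0.05, two-sided. As alternatives, edgeR 4.0.16 called 268 higher and 167 lower H3K4me3 peaks in dsx against CS and 140 and 142 RNAPolII peaks, and DESeq2 1.42.0 was run on the same reads. Gene names come from overlap with RefSeq gene spans (Release 6 plus ISO1 MT), which served for naming alone. Named peaks are the locus, the nearest and the called neighbours, the 5 most alike per antibody, the peaks under 5% of CS that lie over a gene, and list members. The locus and the lists were chosen with earlier results of these data known. Replicates are biological per the labels.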

Additional observations from a re-analysis of the deposited data

How the results depend on the processing

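Of 705 counts of calls recomputed under other settings, 682 stayed within 1.5 times the reported count, as did the side of the threshold in 421 of 429 single-peak values. No value reversed. The 3 H3K4me3 peaks called lower in dsx than in CS became 1 with DESeq2, which gave an adjusted p to only 2 of the 5. In Or67d against CS, where none was called, a pseudocount of 10 gave 2 H3K4me3 calls, fitting the compared libraries alone gave 1, and leaving out libraries gave 0 to 1 (1 without Or67d GH 2). For housing in Or47b, the replicate block gave 1 H3K4me3 call and the compared libraries alone gave 1. Within 50 kb of the locus the 1 H3K4me3 call became 2 with a pseudocount of 10, 2 with quantile normalization, 5 with the replicate block and 2 with each library's spread of strong against weak peaks as a covariate, an alternative chosen after seeing the data; leaving out libraries gave 1 to 5 (5 without CS GH 3, 2 without CS SH 1 or dsx SH 1). The 1 RNAPolII call there became 2 with that covariate, 2 with the compared libraries alone, 2 when the 3 doubted libraries were left out (also chosen after seeing the data), and 0 with edgeR; leaving out libraries gave 0 to 2 (2 without dsx GH 1). RNAPolII housing calls in dsx ranged from 0 to 1, with 1 without dsx GH 1 and 1 without dsx GH 2, both at peaks with single reads. The cause of these shifts was not tested, other than the fewer peaks that DESeq2 adjusted. The labels give the replicate numbers no shared source, and not every same-numbered pair had deviations correlated above 0.1: 48 of 135 did with H3K4me3 and 19 of 135 with RNAPolII. With H3K4me3 the median was 0.06 for the same number against -0.03 for other numbers (0.0088 against -0.0029 with RNAPolII), and 17 of 30 libraries were closest to their own number (12 of 30 with RNAPolII); a weak tie between same-numbered H3K4me3 libraries is a hint from the data, not from the design.

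Depth limits the low stretch to a bound: single reads there have no order, and log2 changes against values near 0 depend on the pseudocount.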
